A study of Mus musculus with 18 samples.

Results

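The transcripts of 10 circadian clock genes (Arntl, Npas2, Per1, Per2, Per3, Cry1, Nr1d1, Nr1d2, Dbp and Tef) were followed in mouse kidney cortex. They were taken by name from a deposited expression table of 24062 genes, and all 10 were expressed well enough to be tested, among 13624 genes tested. All animals were C57Bl/6 mice. In Klf15fl/fl mice (fl/fl) the transcription factor gene Klf15 is floxed, and Klf15PTKO mice (PTKO) are those in which it was lost from the proximal tubule. Each genotype was given DMSO, the vehicle, or else aristolochic acid I (AA), a plant toxin that injures the proximal tubule. The toxin course ran for 2 weeks and was sampled then (AA 2wk) or after 2 more weeks of remodeling (AA 4wk). There are 3 libraries in each of the 6 groups, 18 in all. The labels give neither the Cre line nor a Cre control with intact Klf15, so an effect of Klf15 loss and one of the Cre transgene cannot be told apart. They also give no time of day of collection and no week for the DMSO groups, do not say whether replicates are separate mice, and give 1 DMSO group per genotype, which serves both AA courses. The p-values therefore measure only the spread between these libraries, which may be technical, and the clock time at which a library was taken is not known.

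The circadian clock is a feedback loop of transcription that runs in nearly every cell. A dimer of the proteins of Clock (or Npas2) and Arntl, also called Bmal1, binds E-box sequences and drives the Per and Cry genes, whose proteins then block the dimer. The same dimer drives Nr1d1 and Nr1d2 (REV-ERB alpha and beta), which repress Arntl and Npas2, and the output factors Dbp and Tef, which act through D-box sequences. Over a day, Arntl and Npas2 are therefore high when Per, Nr1d and Dbp transcripts are low, with Cry1 peaking late. In the kidney the clock times sodium and water transport along the tubule.

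Values are RPKM, read numbers scaled by transcript length and library depth, which allow levels of different genes to be set side by side. The 18 libraries held 10.98 to 21.92 M reads each, and 11323 to 13254 genes reached 1 RPKM. Klf15 itself was 53, 61.3 and 65.5 RPKM in fl/fl DMSO libraries and 28.5, 31.9 and 32.6 RPKM in PTKO DMSO libraries. The PTKO libraries all lay lower but kept signal. The log2 difference of RPKM + 1 was -0.93 ± 0.26 (SE, limma adjusted p = 0.595). It was not called at AA 2wk or AA 4wk either (0.763 and 0.812), so the test over all genes did not call even the targeted gene. The cortex also holds cells outside the proximal tubule, and their part in the remaining signal was not tested. After AA, Klf15 fell in fl/fl cortex to 22.9, 18.6 and 41.3 RPKM at AA 2wk and 11.6, 14.6 and 18.8 RPKM at AA 4wk (limma adjusted p = 0.00136 and 1.76e-05), against 12.5, 17.5 and 25.6 RPKM and 9.11, 8.81 and 9.53 RPKM in PTKO. The genotypes thus overlapped in Klf15 at AA 2wk, and fl/fl libraries at AA 4wk lay below the PTKO DMSO libraries. Summed proximal tubule markers (9 of 9 tested) ran from 6822 to 8027 RPKM in DMSO and from 777 to 4426 RPKM after AA, and summed macrophage markers (5 of 5) from 38.4 to 79 RPKM and from 246 to 3311 RPKM. In both genotypes the AA 2wk library numbered 3 stood apart, with the highest tubule sum of its group (3686 RPKM in fl/fl, 4426 RPKM in PTKO) and the lowest macrophage sum (246 and 580 RPKM). In such bulk tissue, fewer cells of a type and less RNA per cell cannot be told apart, and the part that the changed cell make-up has in the AA results was not tested.

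Promoters of members are shown here because the E-box and the D-box are the sequences through which the loop works. RefSeq promoter windows on build GRCm38.p6, reaching from 250 bases before to 50 bases after a transcription start, were available for 9 of the 10 members, in 12 windows, with none matched for Per2. Both strands were searched for the E-box CACGTG, the D-box (TTA, then C or T, then A or G, then TAA) and the motif AGGTCA that REV-ERB proteins bind. The 250 bases before the start are printed in the direction of transcription for the members whose windows held an E-box or a D-box: Per1 (chr11:69098699-69098948, plus strand), Per3 (chr4:151044666-151044915, minus strand), Tef (chr15:81802423-81802672, plus strand) and Cry1 (chr10:85185055-85185304, minus strand). Capitals mark the matches.
Per1: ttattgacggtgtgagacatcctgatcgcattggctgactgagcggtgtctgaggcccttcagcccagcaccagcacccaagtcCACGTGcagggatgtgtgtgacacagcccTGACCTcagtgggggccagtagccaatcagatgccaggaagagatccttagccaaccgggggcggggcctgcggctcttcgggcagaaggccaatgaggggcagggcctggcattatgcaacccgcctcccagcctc
Per3: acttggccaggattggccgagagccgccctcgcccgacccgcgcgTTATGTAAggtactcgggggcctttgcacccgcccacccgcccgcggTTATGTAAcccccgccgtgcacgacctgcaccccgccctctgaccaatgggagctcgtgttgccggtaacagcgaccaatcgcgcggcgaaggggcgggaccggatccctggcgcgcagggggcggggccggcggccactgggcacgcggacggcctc
Tef: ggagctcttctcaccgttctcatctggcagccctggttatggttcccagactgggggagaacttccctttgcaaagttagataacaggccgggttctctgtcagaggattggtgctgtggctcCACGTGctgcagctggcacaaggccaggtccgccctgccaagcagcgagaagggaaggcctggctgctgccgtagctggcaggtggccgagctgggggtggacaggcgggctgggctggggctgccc
Cry1: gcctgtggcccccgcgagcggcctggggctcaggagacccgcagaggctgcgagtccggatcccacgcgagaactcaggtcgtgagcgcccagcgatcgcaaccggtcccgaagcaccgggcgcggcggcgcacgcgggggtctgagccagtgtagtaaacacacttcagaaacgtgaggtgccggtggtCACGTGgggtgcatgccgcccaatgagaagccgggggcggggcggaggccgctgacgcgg
Counting from the first transcribed base, the E-box began at -166 in Per1, -127 in Tef and -60 in Cry1. A second start of Tef held another at -138, and a second start of Per1 held none. Per3 held a pair of D-boxes, at -205 and -158, and Per1 also held the AGGTCA motif, on the minus strand, at -137. The AGGTCA motif was further present at 32 in 1 of 2 windows of Arntl and at -77 in Nr1d2. Windows of Npas2, Nr1d1 and Dbp held none of these letters. Of 32851 RefSeq windows of the same length, 7.15% held the E-box, 1.59% a D-box and 16.3% the AGGTCA motif. A match is a description of the letters, and no match says only that these letters are not in this window.

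The output factors and the REV-ERB genes were the most abundant members. In fl/fl DMSO cortex Tef averaged 89.3 ± 9.72 RPKM (mean ± SD, n = 3, as in all such values here), above Dbp at 49.8 ± 4.01 and Nr1d1 at 48.1 ± 3.05 RPKM, which did not differ beyond their spread. Nr1d2 followed at 30 ± 1.98 RPKM, and then Per1, Per2 and Per3 at 13.6 ± 9.39, 9.16 ± 4.04 and 7.8 ± 4.15 RPKM, 3 neighbours whose spreads overlap. The lowest levels, again overlapping, were those of Cry1 (1.2 ± 0.467 RPKM), Arntl (1.17 ± 0.395) and Npas2 (0.761 ± 0.31). In PTKO DMSO cortex Tef (60.6 ± 12 RPKM) and Nr1d1 (52.8 ± 2.35) led within their spread, and Nr1d1 had the highest mean in fl/fl at both AA times and in PTKO at AA 4wk (48.9 ± 11.9, 55.3 ± 2.65 and 50.7 ± 4.71 RPKM). In PTKO DMSO, Arntl, at 3.64 ± 1.88 RPKM, stood level with Per1 (3.64 ± 1.02), Per2 (3.63 ± 1.33) and Per3 (3.42 ± 1.17). Counted reads per library were few for the lowest members (29 to 351 for Arntl, 21 to 456 for Npas2 and 32 to 185 for Cry1) and at least 202 for each of the others.

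**Figure D1:**
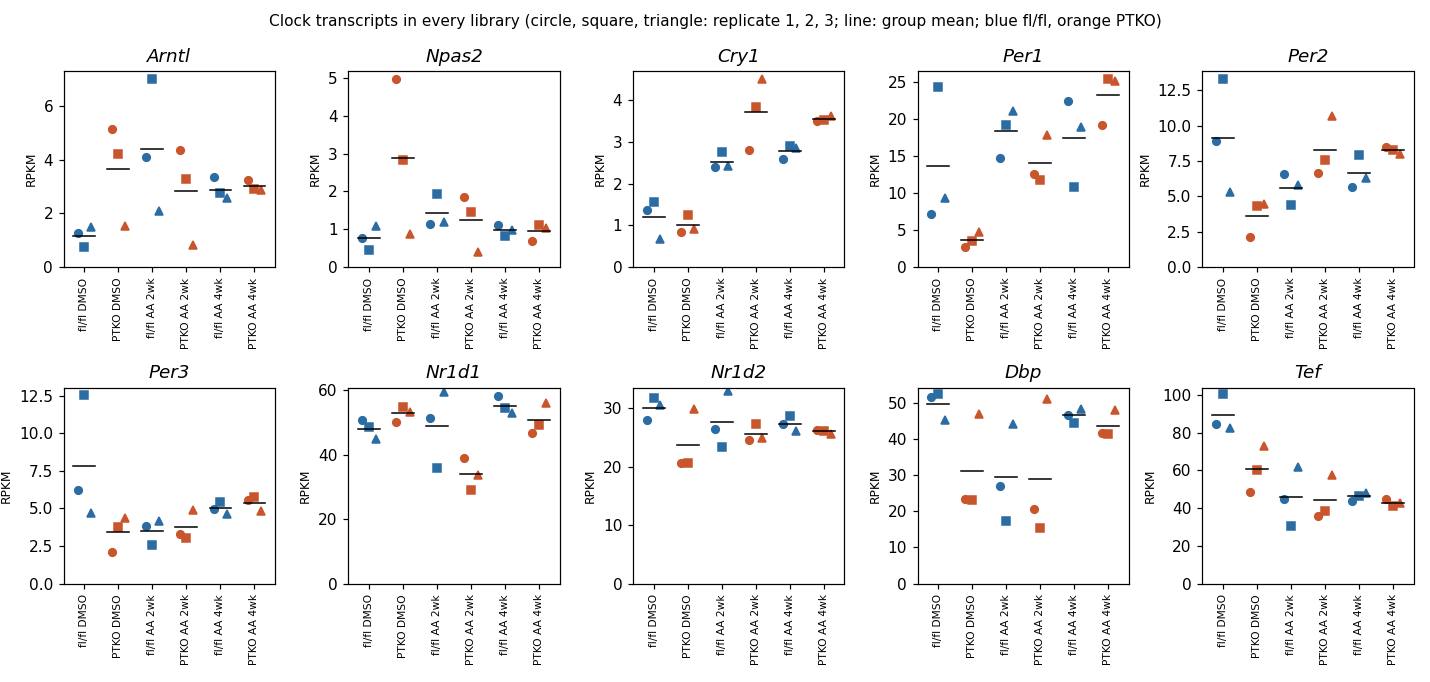
RPKM of the 10 clock genes in each of the 18 libraries, by group, with the group mean as a line and each replicate number as its own symbol. In DMSO the PTKO libraries lie below all fl/fl libraries for Per1, Per2, Per3 and Tef and above them for Arntl, and the library numbered 3 of both AA 2wk groups is low in Arntl and high in Dbp.

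The first comparison set PTKO against fl/fl cortex without toxin, at collection times that are not known. Mean levels of the activators were higher in PTKO and those of the Per genes, Dbp and Tef lower, but no member passed the test over all genes. Arntl, the core activator, was 1.28, 0.731 and 1.5 RPKM in fl/fl libraries and 5.16, 4.22 and 1.54 RPKM in PTKO libraries. The groups did not overlap, but PTKO replicate 3 lay only just above the highest fl/fl library. Npas2, which can stand in for Clock, was 0.756, 0.453 and 1.07 RPKM in fl/fl and 4.98, 2.84 and 0.869 RPKM in PTKO. Here PTKO replicate 3 fell within the fl/fl range. On the log2(RPKM + 1) scale, which understates changes of low genes, Arntl differed by 1.02 ± 0.40 (SE, limma adjusted p = 0.910) and Npas2 by 1.01 ± 0.33 (adjusted p = 0.775).

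Among the repressors, Per1 was 7.13, 24.4 and 9.36 RPKM in fl/fl DMSO libraries and 2.7, 3.5 and 4.72 RPKM in PTKO libraries. Per2 was 8.89, 13.3 and 5.27 RPKM against 2.09, 4.33 and 4.45 RPKM. Per3 was 6.19, 12.5 and 4.7 RPKM against 2.12, 3.78 and 4.37 RPKM. All 3 Per genes were lower in every PTKO library than in any fl/fl library, and fl/fl replicate 2 was the highest library for each. The log2 differences were -1.50 ± 0.35 for Per1 (adjusted p = 0.392), -1.10 ± 0.27 for Per2 (0.461) and -0.93 ± 0.27 for Per3 (0.641). Cry1, the partner of the Per proteins, was 1.36, 1.56 and 0.67 RPKM in fl/fl and 0.832, 1.24 and 0.904 RPKM in PTKO libraries. These ranges overlap, and the log2 difference was -0.12 ± 0.16 (95% interval -0.46 to 0.21, adjusted p = 1).

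Neither REV-ERB gene was called. Nr1d1 was 50.9, 48.6 and 44.9 RPKM in fl/fl and 50.3, 54.9 and 53.4 RPKM in PTKO DMSO libraries, an overlap with a log2 difference of 0.13 ± 0.14 (95% interval -0.18 to 0.44, adjusted p = 1). Nr1d2 was 27.9, 31.8 and 30.4 RPKM against 20.6, 20.6 and 29.9 RPKM, with PTKO replicate 3 inside the fl/fl range (log2 difference -0.35 ± 0.13, adjusted p = 0.861). Of the output factors, Dbp was 51.8, 52.5 and 45.2 RPKM in fl/fl and 23.4, 23.2 and 46.9 RPKM in PTKO libraries. PTKO replicates 1 and 2 lay well under all fl/fl libraries and replicate 3 among them, so that the log2 difference of -0.74 ± 0.37 had an adjusted p of 1. Tef was 84.9, 100.5 and 82.6 RPKM against 48.8, 60.1 and 72.8 RPKM, lower in every PTKO library (-0.57 ± 0.22, adjusted p = 0.874).

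In all, limma called 0 of the 10 members between genotypes in DMSO at an adjusted p under 0.05, where it called 0.0367% of all genes. At an unadjusted p under 0.05 stood 7 of 10, against 4.94% of all genes. Groups did not overlap for 1 member that was higher in PTKO (7.88% of all genes) and 4 that were lower (5.77% of all genes). The median log2 difference was -0.46 over the members and 0.01 over all tested genes. Read as counts, these shares are above the background, but the genes were chosen with earlier results of these data known. The count depends on how libraries are weighted. With sample quality weights, which give less weight to variable libraries, limma called 7 of 10 members (Arntl and Npas2 higher, Per1, Per2, Per3, Dbp and Tef lower, adjusted p 0.00169 to 0.0188) and 8.64% of all genes. The default method for these weights did not converge, so a gene-by-gene method was used. Voom on recovered read numbers called 0, and no other setting called a member in this comparison.

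PTKO DMSO replicate 3 also differed from its group in summed tubule injury markers, at 44.8 RPKM against 6.58 and 7.05 RPKM. Without it the log2 differences were 1.40 for Arntl, 1.46 for Npas2, -1.66 for Per1, -1.24 for Per2, -1.09 for Per3, -0.52 for Nr1d2, -1.06 for Dbp and -0.71 for Tef. All 8 were larger than with it, and limma again called 0 (adjusted p 0.168 for Npas2 and 0.277 for Nr1d2, at least 0.461 for the other members). Without fl/fl DMSO replicate 2 instead, the Per differences were smaller, at -1.01 for Per1, -0.81 for Per2 and -0.57 for Per3. Proximal tubule sums overlapped between the DMSO groups (6847 to 8027 RPKM in fl/fl, 6822 to 7921 RPKM in PTKO). Per1 also responds to glucocorticoids, and the summed level of 6 other glucocorticoid-responsive genes was 401 to 466 RPKM in fl/fl and 276 to 392 RPKM in PTKO DMSO libraries. Of these 6 genes limma called 0 (2 at an unadjusted p under 0.05, 0.0367% and 4.94% of all genes). Only 1 of the 6 was lower in every PTKO library (5.77% of all genes). After AA in PTKO, 4 were called higher and 0 lower at AA 2wk, then 2 and 2 at AA 4wk. In fl/fl the counts were 0 and 1, then 0 and 3. Shares of all genes were 45.9% and 14.3%, then 55% and 17.3%, in PTKO. In fl/fl they were 50.4% and 12.2%, then 51.9% and 14.3%. The part of these differences in the Per1 results was not tested.

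**Figure D2:**
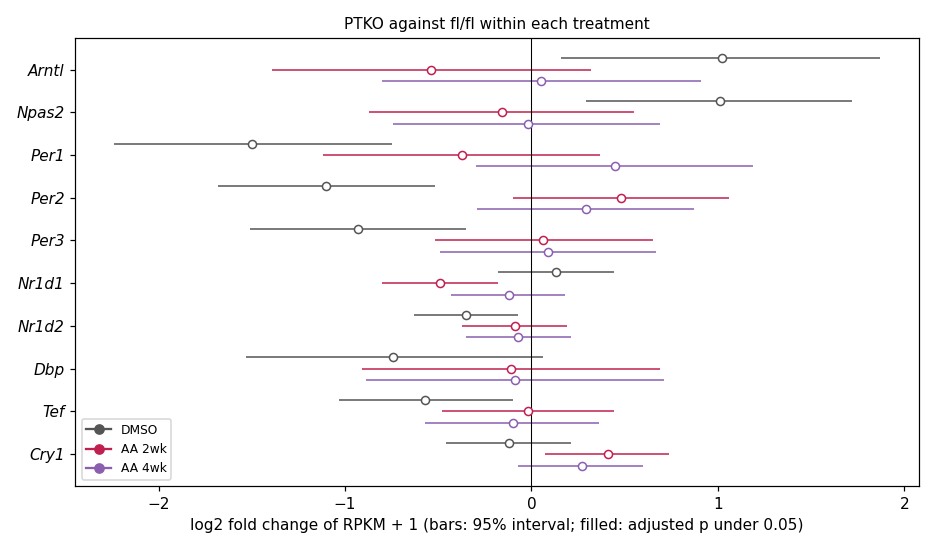
Log2 difference of RPKM + 1 between PTKO and fl/fl within DMSO, AA 2wk and AA 4wk for each clock gene, with 95% intervals from limma. No point is filled, as no member was called, and the estimates for Per1, Per2 and Per3 are -1.50, -1.10 and -0.93 in DMSO and 0.45, 0.29 and 0.09 at AA 4wk. The intervals of Per3 overlap, and the AA 4wk interaction was not called for any Per gene.

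The toxin course was then compared with DMSO within each genotype. In fl/fl cortex after 2 weeks of AA, Arntl and Cry1 rose, and Per3 and Tef fell. Arntl reached 4.09, 7.01 and 2.1 RPKM, all above the DMSO libraries, with a log2 change of 1.23 ± 0.40 (adjusted p = 0.0155). Cry1 reached 2.4, 2.76 and 2.42 RPKM, also all above DMSO (0.70 ± 0.16, adjusted p = 0.00148). Per3 stood at 3.84, 2.56 and 4.14 RPKM (-0.88 ± 0.27, adjusted p = 0.0114) and Tef at 44.7, 30.3 and 62.1 RPKM (-1.0 ± 0.22, adjusted p = 0.00112), both below every DMSO library. For each of Arntl, Per3 and Tef the library farthest from DMSO was replicate 2.

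The other 6 members were not called in this comparison. Dbp was 27.1, 17.4 and 44.3 RPKM, below every fl/fl DMSO library (-0.83 ± 0.37, adjusted p = 0.0669). Npas2 was 1.14, 1.93 and 1.19 RPKM, above all of them (0.46 ± 0.33, 0.241). Per1 (14.7, 19.3 and 21.1 RPKM), Per2 (6.56, 4.4 and 5.82), Nr1d1 (51.3, 35.9 and 59.4) and Nr1d2 (26.4, 23.4 and 32.9) overlapped with DMSO, with log2 differences of 0.57 ± 0.35, -0.56 ± 0.27, -0.01 ± 0.14 and -0.13 ± 0.13. Thus 2 members were called higher, where 50.4% of all genes were, and 2 lower, where 12.2% were.

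In PTKO cortex after the same 2 weeks, Per1, Per2 and Cry1 rose and Nr1d1 fell. Per1 reached 12.6, 11.7 and 17.9 RPKM, above every PTKO DMSO library, with a log2 change of 1.70 ± 0.35 (adjusted p = 0.000869). Per2 reached 6.62, 7.54 and 10.7 RPKM, again without overlap (1.03 ± 0.27, adjusted p = 0.00491). Cry1, at 2.81, 3.83 and 4.52 RPKM, held the highest value of any library for this gene (1.23 ± 0.16, adjusted p = 2.16e-05). Nr1d1 stood at 39.1, 29.1 and 33.8 RPKM, under all DMSO libraries (-0.63 ± 0.14, adjusted p = 0.00187). Here 3 members were called higher, where 45.9% of all genes were, and 1 lower, where 14.3% were.

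Members not called in PTKO at 2 weeks included both activators. Arntl was 4.38, 3.28 and 0.804 RPKM and Npas2 1.85, 1.47 and 0.405 RPKM, each spanning a wide range and lowest in replicate 3 (log2 differences -0.33 ± 0.40 and -0.71 ± 0.33). Dbp was the reverse, at 20.8, 15.3 and 51.1 RPKM with replicate 3 highest (-0.20 ± 0.37). Tef was 36, 38.8 and 57.7 RPKM (-0.46 ± 0.22, adjusted p = 0.0785). Per3 (3.27, 3.02 and 4.9 RPKM) and Nr1d2 (24.6, 27.2 and 24.9 RPKM) overlapped with DMSO, at 0.11 ± 0.27 and 0.12 ± 0.13.

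**Figure D3:**
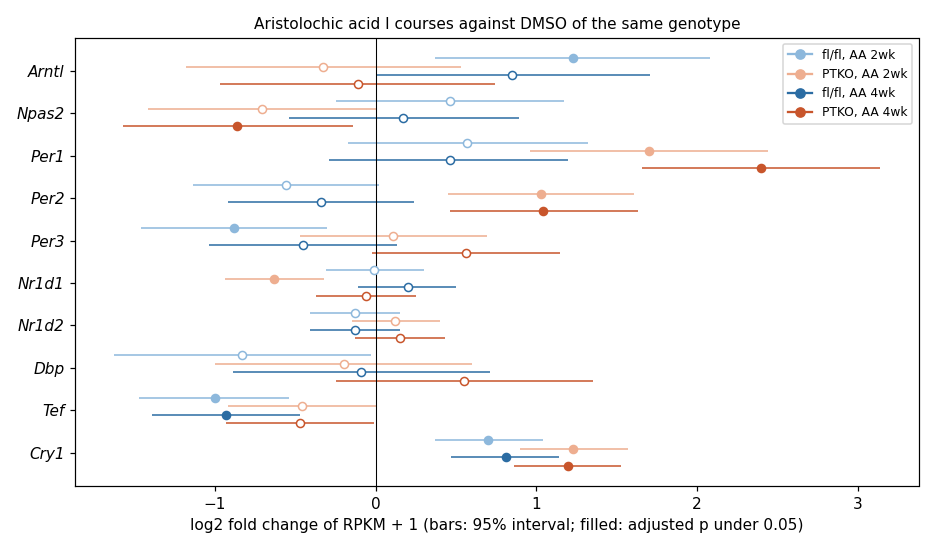
Log2 change of RPKM + 1 after AA 2wk and AA 4wk against DMSO of the same genotype for each clock gene, with 95% intervals from limma and filled points for called members. Cry1 lies right of 0 in all 4 comparisons (0.70, 1.23, 0.81 and 1.20), and Per1 and Per2 are filled in PTKO comparisons and open in fl/fl comparisons. Both courses of a genotype share its DMSO libraries.

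After the remodeling period (AA 4wk against DMSO), fl/fl cortex had 2 calls. Cry1 was 2.59, 2.91 and 2.84 RPKM, above all DMSO libraries (0.81 ± 0.16, adjusted p = 0.000438), and Tef was 43.9, 46.5 and 48.3 RPKM, below all of them (-0.93 ± 0.22, adjusted p = 0.00162). Arntl was 3.34, 2.76 and 2.55 RPKM, above all DMSO libraries yet not called (0.85 ± 0.40, adjusted p = 0.0728). Dbp, at 46.8, 44.5 and 48.5 RPKM, overlapped with DMSO (-0.09 ± 0.37). Npas2 (0.825 to 1.12 RPKM), Per1 (10.8 to 22.5), Per2 (5.67 to 7.94), Per3 (4.62 to 5.44), Nr1d1 (53.1 to 58.2) and Nr1d2 (26.1 to 28.6) were not called either. So 1 member was called higher, where 51.9% of all genes were, and 1 lower, where 14.3% were.

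In PTKO cortex at AA 4wk, Per1 showed the widest change of any member in the AA comparisons, at 19.2, 25.4 and 25.2 RPKM (2.40 ± 0.35 against DMSO, adjusted p = 2.77e-05). Per2 was 8.46, 8.26 and 8.02 RPKM (1.04 ± 0.27, adjusted p = 0.00307) and Cry1 3.49, 3.53 and 3.62 RPKM (1.20 ± 0.16, adjusted p = 1.14e-05). All 3 rose without overlap with DMSO. Npas2 was 0.695, 1.11 and 1.02 RPKM and was called lower (-0.86 ± 0.33, adjusted p = 0.0313), although its range includes PTKO DMSO replicate 3 at 0.869 RPKM. Without PTKO DMSO replicate 1 the log2 difference of Npas2 was -0.47 (adjusted p = 0.191), and the gene was called in 20 of 27 other settings (adjusted p 0.000488 to 0.191). The calls were 3 higher, where 55% of all genes were, and 1 lower, where 17.3% were. Arntl (3.25, 2.93 and 2.88 RPKM), Per3 (5.57, 5.77 and 4.82), Nr1d1 (46.9, 49.2 and 56), Nr1d2 (26.3, 26 and 25.7), Dbp (41.7, 41.5 and 48.1) and Tef (44.9, 41.1 and 42.7) were not called. Of these, Tef lay below every DMSO library (-0.47 ± 0.22, adjusted p = 0.0628).

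These changes are read against a general upward shift. Without overlap with DMSO, 3 of 10 members were higher at AA 2wk in each genotype. At AA 4wk there were 3 in fl/fl and 4 in PTKO. Of all 13624 genes, 6951 in fl/fl and 6395 in PTKO were higher in this way at AA 2wk, then 7574 and 8247. Members lower without overlap numbered 3 in fl/fl and 1 in PTKO at AA 2wk, then 1 and 1. The counts over all genes were 1682 and 2178, then 2268 and 2708. The median over all tested genes was 0.33 and 0.29 at AA 2wk in fl/fl and PTKO and 0.35 and 0.40 at AA 4wk (log2), and 80.5%, 76.3%, 78.4% and 76.1% of called genes were higher. With median-of-ratios scaling, which centres the genes, those shares were 49.8%, 49.2%, 48.9% and 48.8%, and with quantile normalization 44.8%, 46.7%, 43.8% and 44.5%. Relative to the shift, Cry1 in fl/fl stood 0.47 and 0.54 higher at AA 2wk and AA 4wk with median-of-ratios scaling (adjusted p = 0.0268 and 0.0106), but 0.06 and 0.05 with quantile normalization (0.802 and 0.812), which ended both calls. Quantile normalization also ended the calls of Arntl in fl/fl at AA 2wk (0.60, adjusted p = 0.174), of Per2 in PTKO at AA 2wk and AA 4wk (0.55 and 0.42, adjusted p = 0.0974 and 0.18) and of Cry1 in PTKO at AA 4wk (0.42, adjusted p = 0.0505). Per1 in PTKO (1.24 and 1.89 with quantile normalization) and Tef in fl/fl (-1.05 and -0.93) kept their calls in both scalings. With median-of-ratios scaling, fl/fl cortex at AA 2wk had 8 called members, 2 higher (27.8% of all genes) and 6 lower (28% of all genes). The 4 added are Per2 (-0.91), Nr1d1 (-0.40), Nr1d2 (-0.52) and Dbp (-1.22), each lower. No called member changed its direction with either scaling.

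The AA 2wk results were repeated without both libraries numbered 3, which stood apart. All 8 calls of members at AA 2wk were kept, and output factors were added. Dbp was then called lower in both genotypes (-1.16 in fl/fl, adjusted p = 0.00125, and -0.69 in PTKO, adjusted p = 0.0273). Tef was called lower in PTKO as well (-0.66, adjusted p = 0.00216). The change of Arntl was 1.58 in fl/fl (adjusted p = 0.000445) and 0.15 in PTKO (adjusted p = 0.686).

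Leaving out 1 fl/fl library also ended calls of AA 2wk in fl/fl. Without fl/fl AA 2wk replicate 2, Arntl was at 0.89 (adjusted p = 0.0841) and Per3 at -0.72 (0.055). Without fl/fl DMSO replicate 2, the library with the highest Per levels, Arntl was at 1.07 (0.0532) and Per3 at -0.52 (0.0594). Over all 27 other settings, Arntl was called in 24 (adjusted p 0.000445 to 0.174) and Per3 in 24 (0.000802 to 0.0632).

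Between genotypes under AA, PTKO libraries lay above fl/fl libraries for Per2 and Cry1 at both times. At AA 2wk Per2 was 6.62 to 10.7 RPKM in PTKO and 4.4 to 6.56 RPKM in fl/fl (0.48 ± 0.27), and Cry1 2.81 to 4.52 against 2.4 to 2.76 RPKM (0.41 ± 0.16). At AA 4wk Per2 was 8.02 to 8.46 against 5.67 to 7.94 RPKM (0.29 ± 0.27), and Cry1 3.49 to 3.62 against 2.59 to 2.91 RPKM (0.27 ± 0.16). Marker sums separated the same AA 4wk groups: proximal tubule sums were 2049 to 2469 RPKM in fl/fl and 777 to 1494 RPKM in PTKO, and macrophage sums 1397 to 2178 and 2251 to 3311 RPKM. Limma called 0 of these 9 and 0 of these 5 markers between the genotypes. Sums for thick ascending limb, distal convoluted tubule and intercalated cells were also lower in PTKO without overlap. Those for T cells and tubule injury were higher, and those for collecting duct, podocytes and endothelium overlapped. The part of cell make-up in the genotype differences was not tested. These 2 of 10 members are those that did not overlap and were higher. The share of all genes was 1.95% at AA 2wk and 14.1% at AA 4wk, so the count at AA 4wk lies near that of all genes. Limma called 0 of 10 members at either time (for Per2 and Cry1 adjusted p was 0.818 and 0.641 at AA 2wk, then 0.847 and 0.822), and it called 0.00734% of all genes at each. Unadjusted p-values under 0.05 were found for 2 of 10 members at AA 2wk (Nr1d1 and Cry1, 6.7% of all genes) and 0 at AA 4wk (6.04%). Nr1d1 was lower in PTKO at AA 2wk, at 29.1 to 39.1 against 35.9 to 59.4 RPKM (-0.49 ± 0.14, limma adjusted p = 0.437). Those ranges overlap, and without fl/fl AA 2wk replicate 2 limma called Nr1d1 lower (-0.69, adjusted p = 0.0164). Averaged over the treatments the count was again 0 (0.0514% of all genes), with 2 of 10 unadjusted (Per1 and Nr1d2, 7.72% of all genes). Voom called 0 in each of these comparisons.

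Whether the AA change itself differed between genotypes was tested as an interaction, and 0 of 10 members were called at AA 2wk (0.0147% of all genes) or AA 4wk (0.00734%), by limma or by voom. At an unadjusted p under 0.05 stood 7 members at AA 2wk (5.36% of all genes) and 4 at AA 4wk (4.66%). The AA 2wk change of Per2 was 1.58 ± 0.38 higher in PTKO than in fl/fl (adjusted p = 0.670) and that of Arntl was lower, at -1.55 ± 0.57 (0.845). At AA 4wk Per1 differed by 1.94 ± 0.49 and Per2 by 1.39 ± 0.38 (adjusted p = 0.934 each). The calls of Per1 and Per2 in PTKO alone are therefore not shown to be particular to that genotype, and each such difference holds the DMSO difference between genotypes within it. With sample quality weights Per2 was called in both interactions (1.43, adjusted p = 0.0478, and 1.59, adjusted p = 0.0304).

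From AA 2wk to AA 4wk, fl/fl cortex had 0 called members (0.125% of all genes called), 0 at an unadjusted p under 0.05 (12.3% of all genes) and 0 by voom. In PTKO cortex Nr1d1 was called higher, at 46.9, 49.2 and 56 RPKM against 39.1, 29.1 and 33.8 RPKM (0.57 ± 0.14, adjusted p = 0.0431), where 2.6% of all genes were. The groups did not overlap, but the call was kept in only 11 of 27 other settings (adjusted p 0.0135 to 0.172). Dbp went from a range of 15.3 to 51.1 RPKM to one of 41.5 to 48.1 RPKM in PTKO and from 17.4 to 44.3 to 44.5 to 48.5 RPKM in fl/fl (0.75 ± 0.37 and 0.73 ± 0.37, adjusted p = 0.210 and 0.445). Without both AA 2wk libraries numbered 3, Dbp was called higher in PTKO (1.24, adjusted p = 0.0203) and not in fl/fl (1.07, adjusted p = 0.0852). In PTKO, 821 of all genes were then called in either direction, against 567 with these libraries.

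Nr1d1 overlaps the thyroid hormone receptor gene Thra on the opposite strand. In the GENCODE annotation of GRCm38, Nr1d1 lies at chr11:98767932-98775333 on the minus strand and shares 263 of its 3077 exon bases with Thra. Whether reads were counted by strand is not given in the sources used here, so reads of the shared bases cannot be told apart. Thra was 30.8, 29.6 and 27.8 RPKM in PTKO DMSO libraries, 19.8, 17.8 and 22.7 RPKM at AA 2wk and 22.7, 23.3 and 24.3 RPKM at AA 4wk. It fell at AA 2wk like Nr1d1 (-0.53 ± 0.10, adjusted p = 0.000618), and its part in the Nr1d1 values was not tested. Dbp (chr7:45705088-45710203, plus strand) shares 539 of 2993 exon bases with Sphk2, which was not called in any PTKO comparison named here (-0.16 ± 0.13 at AA 2wk and -0.02 ± 0.13 at AA 4wk). Arntl (chr7:113207465-113314126, plus strand) shares 33 of 7523 exon bases and Tef (chr15:81802421-81826863, plus strand) 193 of 7867 with an antisense RNA gene. The others lie at chr1:39193731-39363236 (Npas2, plus), chr11:69095217-69109960 (Per1, plus), chr1:91415982-91459324 (Per2, minus), chr4:151003652-151044665 (Per3, minus), chr14:18204054-18239127 (Nr1d2, minus) and chr10:85131700-85185064 (Cry1, minus), and share no exon base with another annotated gene.

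How the members vary together across libraries was described with a single number per library, the mean log2(RPKM + 1) of Per1, Per2, Per3, Nr1d1, Nr1d2, Dbp and Tef minus that of Arntl, Npas2 and Cry1. It was 3.47, 4.15 and 3.38 in fl/fl DMSO libraries and 1.62, 2.11 and 3.21 in PTKO DMSO libraries, so PTKO replicate 3 lay close to the fl/fl libraries. At AA 2wk it was 2.55, 1.79 and 3.07 in fl/fl and 2.11, 2.09 and 3.27 in PTKO, with replicate 3 highest in both. At AA 4wk all 6 libraries lay between 2.82 and 2.91. The libraries of a group thus differed by up to 1.59 in DMSO and by at most 0.07 at AA 4wk.

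**Figure D4:**
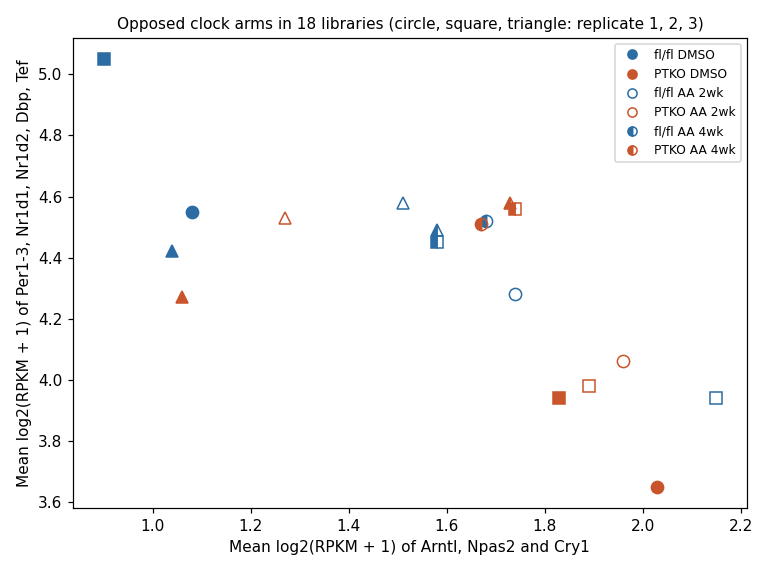
Mean log2(RPKM + 1) of Arntl, Npas2 and Cry1 (x axis) against that of Per1, Per2, Per3, Nr1d1, Nr1d2, Dbp and Tef (y axis), 1 point per library. The fl/fl DMSO libraries lie at upper left (x 0.90 to 1.08), PTKO DMSO replicates 1 and 2 at lower right (x 2.03 and 1.83), and the 6 AA 4wk libraries close together (x 1.58 to 1.74, y 4.45 to 4.58).

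With each treatment centred on its own mean, most members followed this number over the 18 libraries, computed each time without the member itself. Pearson correlations, given as a description, were 0.93 for Tef, 0.87 for Dbp and Per3, 0.79 for Nr1d2, 0.76 for Per2, 0.66 for Per1, -0.85 for Arntl and -0.89 for Npas2. Nr1d1 was at 0.07, without the relation seen in Nr1d2. Cry1 was at 0.40, on the side of the Per genes rather than of Arntl and Npas2, with which it had been grouped. These libraries share their tissue and the genotype difference, and the members were centred over both genotypes, so the values mix differences between and within genotypes.

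Outside the members, the genes with the most similar pattern were Ciart (0.94), a repressor of the Clock and Arntl dimer, Usp2 (0.91), a rhythmic deubiquitinase, Cys1 (0.89), a protein of the primary cilium, Cry2 (0.88), the second cryptochrome, Prnp (0.86), the prion protein, and Gm11128 (0.85). The 6 most opposed were Ppm1h (-0.90), Leo1 (-0.86), Clip2 (-0.84), Jrk (-0.84), Nck2 (-0.84) and Rab11fip5 (-0.83). Without both AA 2wk libraries numbered 3, over 16 libraries, Ciart was at 0.94, Usp2 at 0.89, Cys1 at 0.88, Cry2 at 0.85 and Ppm1h at -0.90. The order was less stable lower down, as Cry2 then ranked 11, Prnp 19 (0.83) and Gm11128 21 (0.81) among the most similar, and Jrk 21 (-0.79) among the most opposed. Ciart was 4.93, 10.7 and 4.39 RPKM in fl/fl DMSO libraries and 0.916, 2.1 and 3.61 RPKM in PTKO DMSO libraries, with no overlap (-1.26 ± 0.36, adjusted p = 0.637). Cys1 was 40.8 to 73 RPKM in fl/fl and 27.9 to 36.8 RPKM in PTKO (-0.72, adjusted p = 0.595). Clock, the usual partner of Arntl, was at -0.70 in this measure and between 7.09 and 11.4 RPKM in all libraries.

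The rest of the clock machinery was taken as a list of 18 genes, 17 of them tested. In DMSO limma called 0 of the 17 between genotypes (0.0367% of all genes), with 3 at an unadjusted p under 0.05 (4.94% of all genes). Cry2, Hlf, Bhlhe40 and Ciart were lower in every PTKO library than in any fl/fl library, as 5.77% of all genes were. Bhlhe40, an E-box repressor, was 59.3, 48.3 and 44.6 RPKM in fl/fl and 32.6, 33.6 and 39.6 RPKM in PTKO (-0.51 ± 0.18, adjusted p = 0.813). After AA, 7 were called higher and 2 lower in both genotypes at AA 2wk, 7 and 3 in fl/fl at AA 4wk, and 9 and 2 in PTKO at AA 4wk. Set beside the shares of all genes, 50.4% higher and 12.2% lower in fl/fl and 45.9% and 14.3% in PTKO at AA 2wk, then 51.9% and 14.3%, and 55% and 17.3%, at AA 4wk, these counts of 17 lie near or below the background. The same 4 genes had the largest called changes in each of the 4 comparisons, which share DMSO libraries within a genotype. Csnk1e, a kinase that phosphorylates Per proteins, rose by 1.67 ± 0.22 and 1.60 ± 0.22 at AA 2wk in fl/fl and PTKO and by 1.79 ± 0.22 and 1.90 ± 0.22 at AA 4wk. Bhlhe41 rose by 1.42 ± 0.14, 1.66 ± 0.14, 1.64 ± 0.14 and 1.90 ± 0.14 in the same order, from 0.611 to 1.42 RPKM in DMSO to 3.85 to 6.05 RPKM after AA. Nfil3, which opposes Dbp and Tef at D-boxes, rose by 1.32 ± 0.29, 1.58 ± 0.29, 1.18 ± 0.29 and 1.64 ± 0.29. Hlf, the third factor of the Dbp and Tef family, fell by 1.23, 1.04, 1.66 and 1.72 on the log2 scale (SE 0.24 each), from 31.7 to 39.9 RPKM in DMSO to 8.37 to 26.1 RPKM after AA. Adjusted p-values of these 16 changes were at most 0.00217.

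Of 12 genes known as clock outputs, all tested, limma called 0 between genotypes in DMSO (0.0367% of all genes) and 6 had an unadjusted p under 0.05 (4.94% of all genes). Usp2, Wee1, Noct, Alas1, Sgk1 and Lonrf3 were lower in every PTKO library, 6 of 12 where 5.77% of all genes were. Wee1, a cell cycle kinase, was 8.9, 11 and 10.3 RPKM in fl/fl and 4.6, 6.8 and 8.56 RPKM in PTKO (-0.56 ± 0.16, adjusted p = 0.641), and Sgk1, a kinase that promotes sodium uptake, was 18.5, 39.4 and 16.9 RPKM against 12.2, 12.8 and 12.3 RPKM (-0.85 ± 0.33, adjusted p = 0.884). After AA, 1 was called higher and 2 lower in fl/fl at AA 2wk, 4 and 1 in PTKO at AA 2wk, 1 and 4 in fl/fl at AA 4wk, and 3 and 2 in PTKO at AA 4wk. In each comparison the count called higher, of 12, is below the share of all genes given above (45.9% to 55%). In the same order, 12.2%, 14.3%, 14.3% and 17.3% of all genes were called lower. The 4 of 12 called lower in fl/fl at AA 4wk lie above that share, and the other counts lie nearer to theirs. Noct, which encodes nocturnin, rose in each comparison (1.48 ± 0.17 and 1.72 ± 0.17 at AA 2wk in fl/fl and PTKO, 1.07 ± 0.17 and 1.94 ± 0.17 at AA 4wk), and Por, the reductase that serves cytochrome P450 enzymes, fell by 0.90, 0.94, 1.01 and 1.08 (SE 0.15 each). In fl/fl, Usp2 fell by 0.78 ± 0.26 and 1.06 ± 0.26, and Alas1, the first enzyme of heme synthesis, by 0.63 ± 0.24 at AA 4wk. In PTKO, Sgk1 rose by 1.59 ± 0.33 and 1.12 ± 0.33 and Wee1 by 0.74 ± 0.16 and 0.84 ± 0.16, while Alas1 was called higher at AA 2wk (0.67 ± 0.24). The 2 Alas1 calls differ in both genotype and time. Limma called 0 of the 12 outputs in the interaction at AA 2wk or AA 4wk (0.0147% and 0.00734% of all genes). Also in PTKO, Slc9a3, the sodium and proton exchanger of the proximal tubule, fell by 0.85 ± 0.25 at AA 4wk. Adjusted p-values of these calls were at most 0.0328. From AA 2wk to AA 4wk, limma called 0 of the other clock genes in either genotype, and of the outputs only Avpr2 in PTKO, the vasopressin receptor of the collecting duct (-0.77 ± 0.20, adjusted p = 0.0488).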

How the data were processed

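Total RNA from kidney cortex was sequenced in 18 libraries. The authors deposited RPKM values. Per the submitters' processing notes the tools were bcl2fastq 2.19 and kallisto, with build mm10; the annotation and strand setting were not given in the sources used here. Groups came from the labels. The 13624 of 24062 genes that reached 1 RPKM in 3 or more libraries were tested on log2(RPKM + 1), in 1 limma fit of the 6 group means with intensity trend and robust moderation (limma 3.58.1, statmod 1.5.0, R 4.3.3). It gave 12 two-sided comparisons with Benjamini-Hochberg adjustment over all tested genes and a threshold of 0.05. The script was tested on simulated data. Whole read numbers, recovered from the steps of the values for 100% of 17579 genes within 0.02 reads, gave depth and a voom alternative. An exact permutation test was not used, since with 3 libraries against 3 its smallest p is 0.1.

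The members and gene lists were chosen with earlier results of these data known. Named were all members; of 2 lists (other clock genes, clock outputs) those without overlap between genotypes in DMSO and the 4 largest called changes per AA comparison; and the 6 genes most and the 6 least correlated with the clock number. A result for 1 gene of the other clock list is not reported here. Bhlhe40, Wee1, Sgk1 and Clock values were singled out after they were seen. Alternatives were another pseudocount (0.1), no filter, median-of-ratios and quantile scaling, sample quality weights, a replicate block, fits of the compared groups alone, voom, and leaving out libraries.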

Additional observations from a re-analysis of the deposited data

How the results depend on the processing

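Of the 12 counts of called members, those of the genotype effect at AA 4wk and averaged over treatments, of the AA 2wk effect in PTKO and of the remodeling change in fl/fl stayed within 1.5 times under all settings. Median-of-ratios scaling gave 8 called members for AA 2wk in fl/fl (4 as reported), 5 for AA 4wk in fl/fl (2 as reported), where it called 55.7% and 61% of all genes, and 0 for the remodeling change in PTKO (1 as reported). Quantile normalization gave 4 for AA 4wk in fl/fl and 2 for AA 4wk in PTKO (4 as reported), with 60.1% and 65.7% of all genes called. Sample quality weights (gene-by-gene method) gave 7 for the genotype effect in DMSO, 4 for AA 4wk in fl/fl, 7 for AA 4wk in PTKO (with 81% and 80.6% of all genes called at AA 4wk), 2 for the remodeling change in PTKO and 1 for each interaction. The remodeling change in PTKO gave 0 with a pseudocount of 0.1, with voom and in a fit of the compared groups, and 2 without both AA 2wk libraries numbered 3. Leaving out 1 library gave 0 to 1 for the remodeling change in PTKO, 0 to 1 for the genotype effect at AA 2wk (1 without fl/fl AA 2wk replicate 2), 2 to 5 for AA 2wk in fl/fl (2 without fl/fl AA 2wk replicate 2) and 2 to 4 for AA 4wk in fl/fl (4 without fl/fl DMSO replicate 3). No called member reversed. The cause of these shifts was not tested.

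Same-numbered libraries are not said to be paired. With group means removed, 23 of 45 same-numbered pairs from different groups correlated above 0.1. The median correlation was 0.10 for the same number and -0.02 for other numbers. For 10 of 18 libraries the mean correlation was highest with libraries of their own number. A replicate block gave 5 called members for AA 2wk in fl/fl and 4 for AA 2wk in PTKO. It gave 3 for AA 4wk in fl/fl, 5 for AA 4wk in PTKO, 1 for the remodeling change in PTKO and 0 elsewhere. Of all 13624 tested genes, the block called 8816 in fl/fl and 8493 in PTKO at AA 2wk. At AA 4wk it called 9279 in fl/fl and 9903 in PTKO. In each of these AA comparisons the members, counted out of 10, were called less often than all genes.

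Over all tested genes, the 5 calls of the genotype effect in DMSO became 1177 with quality weights, 34 without both AA 2wk libraries numbered 3, 11 with the DMSO groups alone, 2 with the block, and 1 with no filter or with quantile normalization. The 1 call at AA 4wk became 384, 197 without both libraries, 3 with no filter and 2 with the block. The 1 call at AA 2wk became 11 with weights, 3 with the block and 2 with a pseudocount of 0.1 or no filter, and the 7 averaged became 781, 56 without both libraries, 11 with the block, 3 with quantile normalization and 2 with voom. The 17 remodeling calls in fl/fl became 781, 43 without both libraries, 40 with the block, 37 with quantile normalization, 10 with a pseudocount of 0.1 or voom and 0 with the compared groups alone. The 567 in PTKO became 1307 with weights, 1570 with the block, 1082 with quantile normalization, 292 with a pseudocount of 0.1, 293 with voom and 0 with the compared groups alone. The 2 interaction calls at AA 2wk became 158 with weights and 1 with the block or the compared groups alone, and the 1 at AA 4wk became 161 with weights and 3 with median-of-ratios scaling. With 21 to 456 reads, Npas2 had the fewest reads in a library, and Arntl and Cry1 had at most 351 and 185, so counting error is largest for these 3.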
